A study of Mus musculus with 16 samples.

Results

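The tumour programme common to 2 kinds of chemically induced mouse liver tumour was measured as the mean of 2 tumour effects with equal weight: Ctnnb1-mutated tumours minus their control liver, and Ha-ras-mutated tumours minus theirs. All 16 arrays of the series entered it, and all 18193 genes with an unambiguous symbol were tested, each through its probe set with the highest mean level. The average takes in every such gene whatever its values, while the genes described were chosen with values known. A gene is said to have passed in the average at an adjusted p under 0.05 in limma (Benjamini-Hochberg over the 18193 genes), and to have passed in both arms when each tumour effect reached that threshold by itself with the same sign.

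The mice were male C3H/HeJ, given DEN (the liver carcinogen diethylnitrosamine) once by injection, at 10 or 90 µg per g of body weight and at 2 or 6 weeks of age, in the words of the series design without saying which animal had which. The 7 Ctnnb1-mutated tumours (replicates 1 to 7) and 3 control livers (replicates 4, 5 and 6) came from mice given phenobarbital, and the 3 Ha-ras-mutated tumours and 3 control livers (replicates 1, 2 and 3 of each) from mice without it. Phenobarbital activates the receptor CAR in hepatocytes and promotes tumour growth. Mutation and phenobarbital cannot be told apart between the arms, but within each arm tumour and control were alike in phenobarbital. DEN dose and age at injection are not given per sample, so they may differ within or between the arms. The sample labels put the treatment at 27 weeks in drinking water, the series design at 28 to 36 weeks in a 0.05% diet, and a protocol text describes a course of 28 days. The labels do not say whether samples came from separate animals, so each test measures the spread between samples, some of which may be technical. Of the hepatocyte markers, 11 were measured and their mean level lay between 13.77 and 14.20 on the log2 scale in every array.

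Ctnnb1 encodes beta-catenin, the effector of the Wnt pathway that keeps the pericentral gene programme on in hepatocytes. The Ha-ras product is a GTP-binding switch upstream of the ERK kinases. The mutations thus act on different pathways, and a hepatocyte tumour of either kind is known to divide, to re-express genes of the fetal liver and to lose part of its adult metabolism. The transcript of the mutated ras gene was not analysed here, and the Ctnnb1 transcript stood at 12.20 to 12.54 in the Ctnnb1 tumours and 12.29 to 12.53 in their controls, which does not check the mutation.

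In the average, 3684 genes passed (20.2% of those tested), of which 1881 were higher in tumours (10.3%) and 1803 lower (9.91%). In both arms with the same sign passed 628 (3.45%), of which 338 were higher (1.86%) and 290 lower (1.59%). A further 83 (0.456%) passed in both arms with opposite signs. Most genes that passed in the average therefore did not pass in both arms, which does not show that they are not shared. Of the genes higher in the average 18% passed in both arms. With the same sign in the other arm, 30.9% passed in the Ha-ras arm only and 22.8% in the Ctnnb1 arm only. Another 357 genes (19%) passed in the average with neither arm passing. Among the lower genes, 16.1% passed in both arms and 433 (24%) in neither. The signs differed in 176 of the higher and 112 of the lower genes, so that their average was carried by 1 arm against the other.

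**Figure D1:**
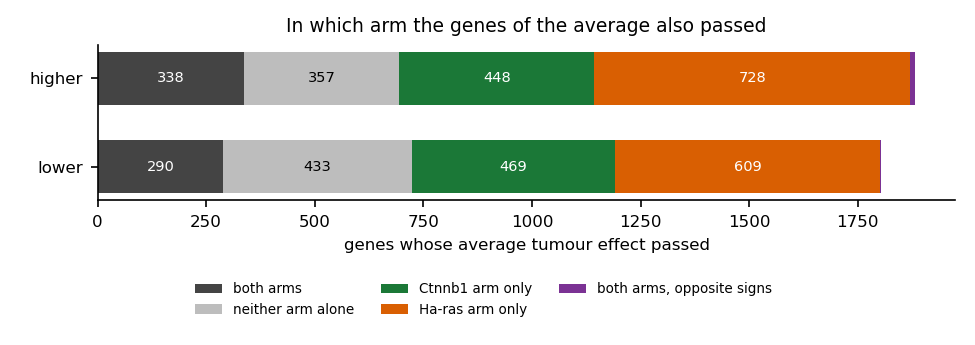
Genes whose average tumour effect passed (horizontal axis, number of genes), by direction (vertical axis) and by the arm in which they also passed. Of the higher genes 338 passed in both arms and 728 in the Ha-ras arm only, and of the lower genes 290 and 609.

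The tumour effects in the 2 arms had a Pearson correlation of 0.389 and a Spearman correlation of 0.31 over the 18193 genes. These are given as a description, since genes are not independent. The arms shared strain, sex, carcinogen, array platform and normalization, and the labels give no batch. Each arm has its own control livers. When each arm was fitted on its own arrays, 735 genes rose and 757 fell in the Ctnnb1 tumours, and 1468 rose and 1203 fell in the Ha-ras tumours. The risers had 282 genes in common, 38.4% of the Ctnnb1 list and 19.2% of the Ha-ras list. Of all genes 8.07% rose in the Ha-ras tumours and 4.04% in the Ctnnb1 tumours. The fallers had 241 in common, 31.8% and 20% of the lists, while 6.61% and 4.16% of all genes fell. Of the genes that rose in the Ctnnb1 tumours 78.2% were higher in the Ha-ras tumours, against 44% of all genes. Another 43 of them (5.85%) passed as lower in the Ha-ras tumours, near the 6.61% of all genes.

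Among the 338 shared risers the median average effect was 1.05 on the log2 scale, with 0.91 in the Ctnnb1 arm and 1.11 in the Ha-ras arm. The 290 shared fallers had a median of -1.04, with -0.97 and -1.13. The rise reached 2-fold in the average in 181 and in both arms in 123, and the fall in 153 and 124. Tumour and control arrays did not overlap in either arm for 281 of the 338 risers and 243 of the 290 fallers. Over all genes tested, the arrays were apart in both arms with tumours higher in 541 (2.97%) and lower in 484 (2.66%). The difference between the 2 tumour effects passed in 988 genes (5.43%), among them 32 of the shared risers and 2 of the shared fallers. The rise was larger in the Ha-ras tumours in 31 of those 32. Each call rests on few arrays: 135 of the risers (39.9%) and 119 of the fallers (41%) passed in both arms in each of 16 further fits that left out 1 array.

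**Figure D2:**
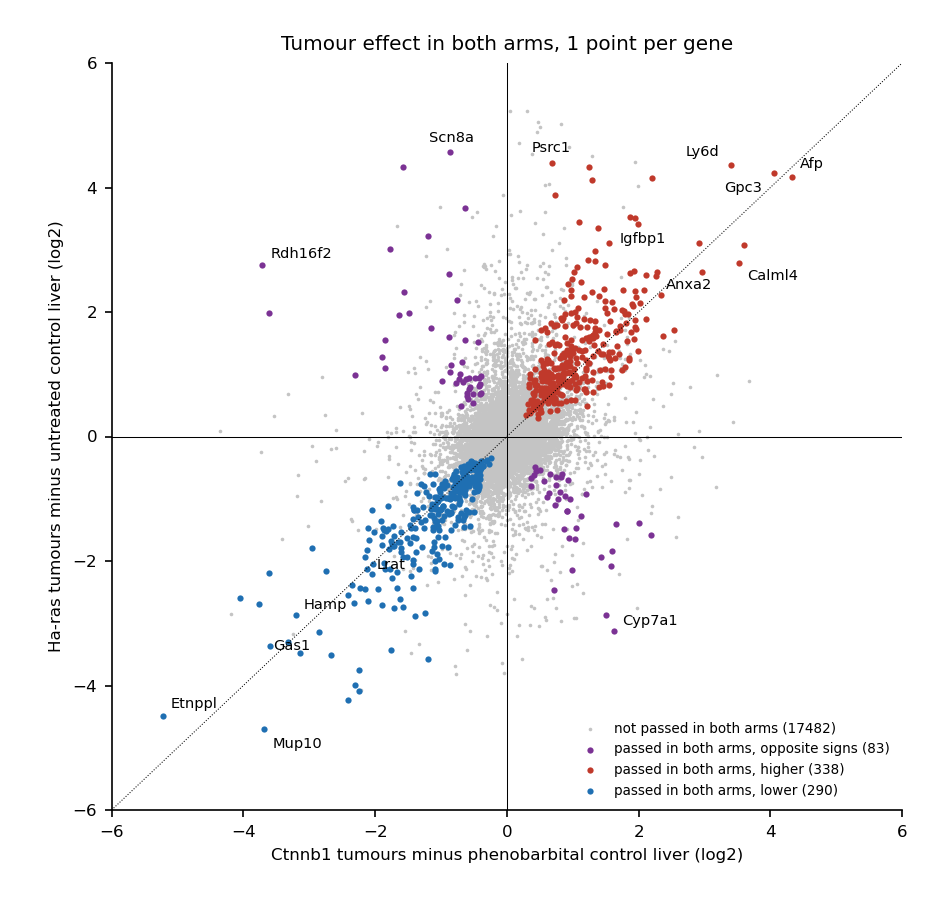
Log2 tumour effect of each of the 18193 genes in the Ctnnb1 arm (horizontal axis) and the Ha-ras arm (vertical axis), with the dotted line where they are equal. The 338 shared risers and 290 shared fallers fill the upper right and lower left, with Afp, Gpc3 and Ly6d and with Etnppl and Mup10 at the ends, and 83 genes passed with opposite signs.

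The largest shared rises were those of genes that mark the fetal liver and liver tumours. Of 29 genes of such a list 19 rose in the average (65.5%, against 10.3% of all genes) and none fell. In both arms 7 rose (24.1%, against 1.86%). The median effect was 1.41 against -0.03 over all genes, but 0.50 in the Ctnnb1 arm and 2.55 in the Ha-ras arm. In the Ctnnb1 arm 8 rose and in the Ha-ras arm 17, where 6.07% and 7.21% of all genes did. The difference between the arms passed in 7 of the 29. This list, like the other gene lists, was chosen with earlier results of these data known. Its numbers are a description and not a test. Afp, the plasma protein of the fetal liver that is silenced after birth, measured 5.95, 7.22 and 9.73 in the phenobarbital controls and 8.70, 8.39 and 9.15 in the untreated controls. In the 7 Ctnnb1 tumours it ran from 10.48 to 12.79 with a median of 11.99, and in the Ha-ras tumours it was 13.06, 13.02 and 12.66. All 10 tumours stood above all 6 controls, of which phenobarbital control 6 was the highest. The average rise was 4.25 (SE 0.46, adjusted p = 1.24e-05), 19-fold, with 4.33 in the Ctnnb1 arm and 4.17 in the Ha-ras arm.

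Gpc3, a heparan sulfate proteoglycan of the fetal hepatocyte surface, was 4.44, 5.41 and 5.37 in the phenobarbital controls and 6.19, 5.83 and 6.73 in the untreated ones. The Ctnnb1 tumours had 7.57 to 10.74 (median 9.25) and the Ha-ras tumours 9.51, 10.73 and 11.20, so that no tumour overlapped a control. The average rise was 4.15 (SE 0.45, adjusted p = 1.43e-05), with 4.06 and 4.23 in the arms. Ly6d, a membrane-anchored protein of the Ly6 family, rose by 3.40 in the Ctnnb1 arm and 4.37 in the Ha-ras arm (average 3.89, SE 0.39, adjusted p = 7.27e-06). Anxa2, which binds calcium and membrane phospholipid, ran from 11.24 to 12.18 in the Ctnnb1 tumours and from 11.07 to 11.45 in the Ha-ras tumours, while the controls reached 10.10 at most. Its arms differed little, 2.28 and 2.64, around an average of 2.46 (SE 0.18, adjusted p = 4.83e-07).

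The Golgi membrane protein Golm1 and the protease inhibitor Slpi rose in both arms, with averages of 2.73 (SE 0.25) and 3.18 (SE 0.35). Slpi overlapped in the Ctnnb1 arm, where the lowest tumour was 9.18 and the highest control 9.39. Other fetal or tumour genes passed in the average through the Ha-ras tumours: Tspan8, a cell surface tetraspanin, rose by 5.03 there (adjusted p = 0.000239) and measured 0.83 in the Ctnnb1 arm (adjusted p = 0.432). The fatty acid desaturase gene Scd2 rose by 4.02 in the Ha-ras arm, while the Ctnnb1 tumours spread from 7.20 to 12.54 around controls of 7.30 to 7.44. The Ctnnb1 effect of Scd2, 1.99, had an adjusted p of 0.125.

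**Figure D3:**
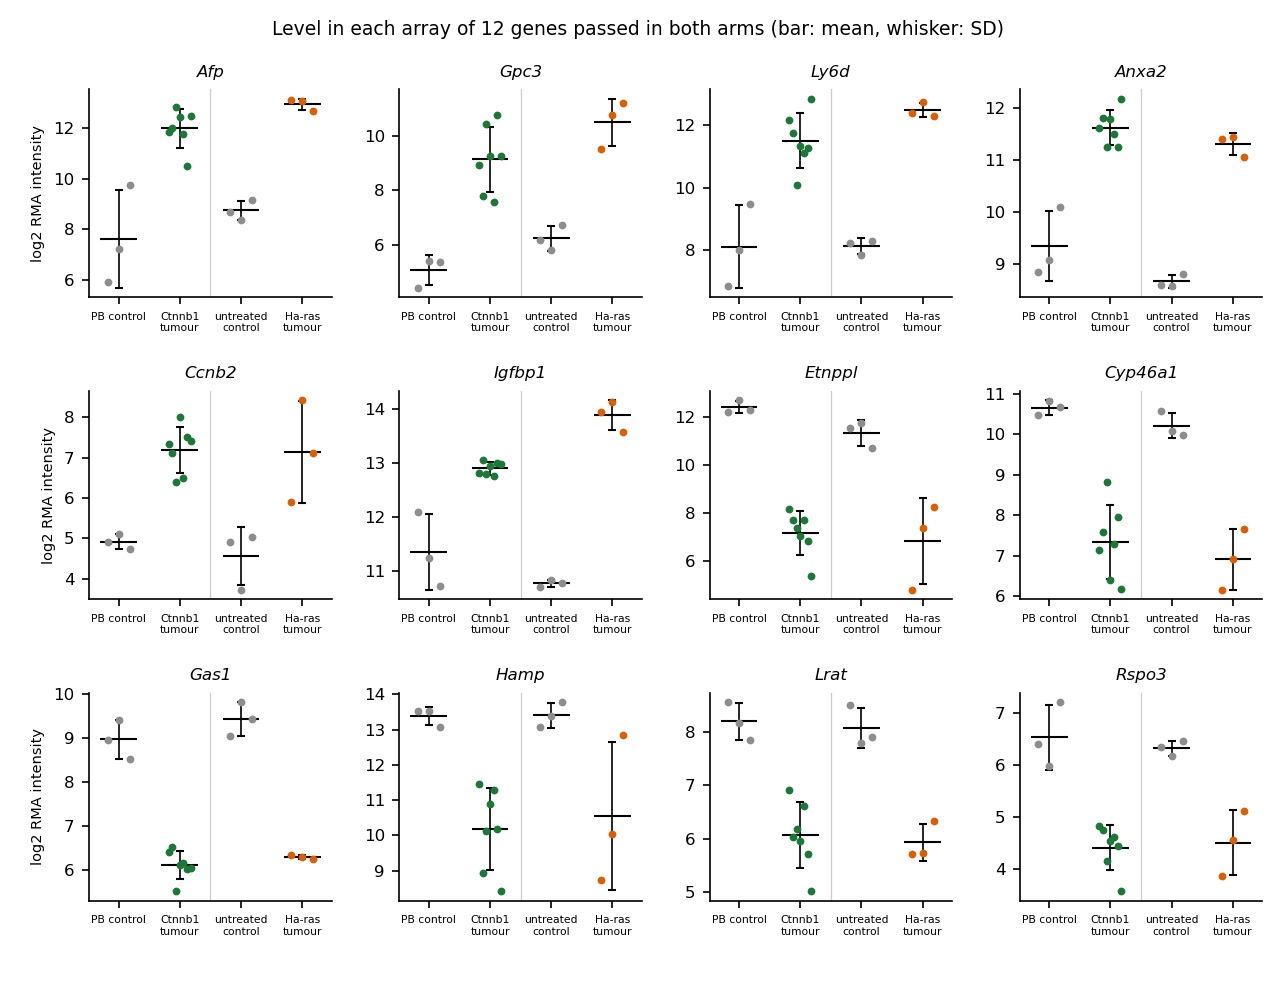
Log2 RMA intensity (vertical axis) of 12 genes passed in both arms in each of the 16 arrays, by group (horizontal axis), with each group's mean and SD. Afp to Igfbp1 rose and Etnppl to Rspo3 fell, with no overlap between tumours and controls of an arm in any of the 12. Hamp in Ha-ras tumour 3, at 12.86, comes closest to its controls.

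Several of the largest shared rises lie outside the fetal list. Calml4, a calmodulin-like protein, measured 6.02, 7.35 and 8.53 in the phenobarbital controls against 10.42 to 11.11 in the Ctnnb1 tumours, and 6.59 to 6.96 against 9.32 to 9.76 in the Ha-ras arm. Its groups were apart in both arms, and the average rise was 3.15 (SE 0.27, adjusted p = 1.58e-06). Basement membrane genes were among them: Tinag rose by 3.01 (SE 0.30) and Nid1, which links laminin to collagen, by 2.70 (SE 0.19). The laminin receptor subunit Itga6 rose by 1.89 (SE 0.15). Nid1 and Itga6 rose more in the Ha-ras tumours, with differences between the arms of -1.44 (adjusted p = 0.0413) and -1.67 (adjusted p = 0.00296). Mmp13, a collagenase, rose by 1.79 and 1.97 in the arms, although its controls differed between the arms, 5.86 to 7.08 with phenobarbital and 3.85 to 4.09 without.

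Igfbp1, a secreted protein that binds insulin-like growth factors, measured 12.10, 11.24 and 10.71 in the phenobarbital controls and 10.70, 10.83 and 10.78 in the untreated controls. It was 12.76 to 13.06 (median 12.94) in the Ctnnb1 tumours and 13.94, 14.13 and 13.58 in the Ha-ras tumours, above every control of its arm. The rise was 1.55 in the Ctnnb1 arm and 3.11 in the Ha-ras arm, and the difference passed (adjusted p = 0.0072). Igf2r, the receptor that clears IGF2, rose by 1.18 (SE 0.13), and its call in both arms was lost without untreated control 3 or Ha-ras tumour 2 (highest adjusted p = 0.0737). Lcn2, an iron-scavenging lipocalin of the acute phase, rose by 2.80 (SE 0.45) and lost the call without untreated control 2 or Ha-ras tumour 1 (highest adjusted p = 0.0875). Slc1a4, a neutral amino acid transporter, rose by 1.99 (SE 0.26) and lost it without Ha-ras tumour 2 (adjusted p = 0.0608).

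For some genes the shared call joined effects of very unequal size. Psrc1, a microtubule-associated protein, was 4.28 to 4.46 in the phenobarbital controls and 4.74 to 5.74 in the Ctnnb1 tumours, but went from 4.93, 4.98 and 5.05 to 9.19, 9.89 and 9.07 in the Ha-ras arm. Its rise was 0.69 in the one arm and 4.40 in the other (difference -3.70, adjusted p = 2.78e-06), and the Ctnnb1 call was lost without any single phenobarbital control (adjusted p up to 0.105). Other probe sets of Psrc1 measured 0.004 and 0.16 in the Ctnnb1 arm and did not pass there. In the Ha-ras arm they measured 1.42, which passed, and 0.07, which did not. Egr1, an immediate early transcription factor induced by ERK, rose by 0.72 and 3.88 (difference -3.16, adjusted p = 4.09e-05). The Ctnnb1 tumours of Egr1, 8.73 to 9.58, overlapped their controls, which reached 8.77, and 10 of 16 omissions ended its call in both arms. The phosphatase-like Mtmr11 (1.86 and 3.53), the interferon-inducible family member Ifi27l2b (1.39 and 3.35) and the milk casein Csn3 (1.30 and 4.12) also rose more in the Ha-ras arm, and the Csn3 call was lost in 10 of the 16 omissions. Another probe set of Csn3 measured -0.09 in the average and did not pass. Of 19 ERK feedback and target genes 8 rose in the average (42.1%, against 10.3% of all genes), 1 of them, Egr1, in both arms. In the Ha-ras arm 10 rose, where 7.21% of all genes did, against 2 in the Ctnnb1 arm, where 6.07% of all genes did.

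Genes of mitosis rose together. Of 36 mitosis and spindle genes 29 rose in the average (80.6%, against 10.3% of all genes) and none fell, with a median effect of 1.46. In both arms 18 rose (50%, against 1.86%). Ccnb2, a B-type cyclin that drives entry into mitosis, measured 4.90, 5.10 and 4.73 in the phenobarbital controls and 4.92, 3.74 and 5.03 in the untreated controls. It ran from 6.40 to 8.003 (median 7.34) in the Ctnnb1 tumours and was 5.91, 8.41 and 7.11 in the Ha-ras tumours. All tumours exceeded all controls, with Ha-ras tumour 2 the highest and untreated control 2 the lowest array. The average rise was 2.42 (SE 0.34, adjusted p = 0.000127), 2.27 and 2.58 in the arms.

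The phosphatase Cdkn3 rose by 2.10 (SE 0.30), Birc5 (survivin, a subunit of the chromosomal passenger complex) by 2.01 (SE 0.37), Ect2, a cytokinesis exchange factor, by 2.00 (SE 0.36), and Ube2c, the ubiquitin enzyme of the anaphase-promoting complex, by 1.91 (SE 0.30). Mki67, the proliferation antigen Ki-67, rose by 1.78 (SE 0.34, adjusted p = 0.00159). It was 5.63 to 7.18 against 7.02 to 8.31 in the Ctnnb1 arm, which overlap, and 4.90 to 5.97 against 6.41 to 8.79 in the Ha-ras arm. In Ha-ras tumour 2 each of these genes was higher than in the other 2 Ha-ras tumours. The count of mitosis genes passed in both arms was 4 without untreated control 2, 5 without Ha-ras tumour 2 and 11 without untreated control 3, while the count in the average stayed between 27 and 31 in the 16 omissions. With genes of a mean level under 6.21 left out, 11 mitosis genes rose in the average.

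Of 33 replication and nucleotide supply genes 12 rose in the average (36.4%) and 3 fell (9.09%, near the 9.91% of all genes), and 1 in each direction passed in both arms. Mcm2, of the replicative helicase, rose by 0.62. The faller was Mcm10, a replication initiation factor, which went from 10.05, 10.41 and 10.70 to between 8.27 and 10.35 in the Ctnnb1 arm and from 10.78, 11.04 and 11.24 to 8.29, 8.26 and 9.21 in the Ha-ras arm (average -1.93, SE 0.26, adjusted p = 9.19e-05). That call ended when phenobarbital control 6 was left out (adjusted p = 0.0683). Of 15 G1 cyclins and CDK inhibitors 8 rose (53.3%, against 10.3% of all genes) and 2 fell (13.3%, against 9.91%). Passed in both arms were the kinase Cdk6 (average 1.06), the retinoblastoma relative Rbl1 (1.39) and the CDK4/6 inhibitor Cdkn2c (1.84, SE 0.14, adjusted p = 6.24e-07), and 3 other probe sets of Rbl1 measured 0.18, -0.18 and -0.05 without passing. Cdkn2b, another inhibitor of that family, rose in the Ha-ras arm by 4.65, with 0.94 in the Ctnnb1 arm (adjusted p = 0.184). Of 19 p53 target genes 9 rose in the average (47.4%, against 10.3% of all genes), 5 without untreated control 2. In the Ha-ras arm 7 rose and in the Ctnnb1 arm none. None passed in both arms in limma, and 3 rose in both at an unadjusted p under 0.05.

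Late cell cycle promoters are known for CCAAT boxes, bound by NF-Y, and for the element TTTGAA, called CHR, through which the DREAM complex holds these genes silent in resting cells. Of the 18 shared mitosis genes 16 had a RefSeq promoter window, 250 bases before to 50 after the start on build GRCm38.p6. A search of both strands found CCAAT in 14 of the 16 (87.5%), TTTGAA in 13 (81.2%) and both in 13 (81.2%). Over all 14452 windows the shares were 38.2%, 13.3% and 5.37%. The windows of the 3 shared mitosis genes with the largest rise that hold both are printed as the sequences behind this group, in the direction of transcription with every match of either strand in capitals, so that ATTGG and TTCAAA are matches on the other strand. They lie at chr9:70421505-70421804 on the minus strand for Ccnb2, chr14:46760291-46760590 on the plus strand for Cdkn3 and chr3:27153829-27154128 on the minus strand for Ect2.
Ccnb2: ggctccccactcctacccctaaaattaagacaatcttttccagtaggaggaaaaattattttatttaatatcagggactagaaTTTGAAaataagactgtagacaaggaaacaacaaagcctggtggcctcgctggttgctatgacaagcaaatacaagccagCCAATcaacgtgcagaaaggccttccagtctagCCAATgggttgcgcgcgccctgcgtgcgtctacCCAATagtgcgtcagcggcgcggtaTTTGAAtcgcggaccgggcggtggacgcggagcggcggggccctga
Cdkn3: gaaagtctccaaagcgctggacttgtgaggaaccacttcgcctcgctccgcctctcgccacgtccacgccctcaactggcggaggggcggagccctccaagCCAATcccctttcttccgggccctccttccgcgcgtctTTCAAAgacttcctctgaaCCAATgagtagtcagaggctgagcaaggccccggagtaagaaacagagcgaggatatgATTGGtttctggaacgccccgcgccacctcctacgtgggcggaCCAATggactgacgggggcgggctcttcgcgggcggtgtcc
Ect2: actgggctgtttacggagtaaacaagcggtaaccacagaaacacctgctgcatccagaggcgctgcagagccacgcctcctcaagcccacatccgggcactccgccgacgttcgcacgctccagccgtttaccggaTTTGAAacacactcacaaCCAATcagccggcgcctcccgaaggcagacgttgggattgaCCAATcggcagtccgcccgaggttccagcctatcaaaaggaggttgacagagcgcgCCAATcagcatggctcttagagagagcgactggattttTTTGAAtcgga
A match is a description of the letters and not a bound site. Over all 338 shared risers the shares were lower, 44.8% of 270 windows for CCAAT and 19.6% for TTTGAA.

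**Figure D4:**
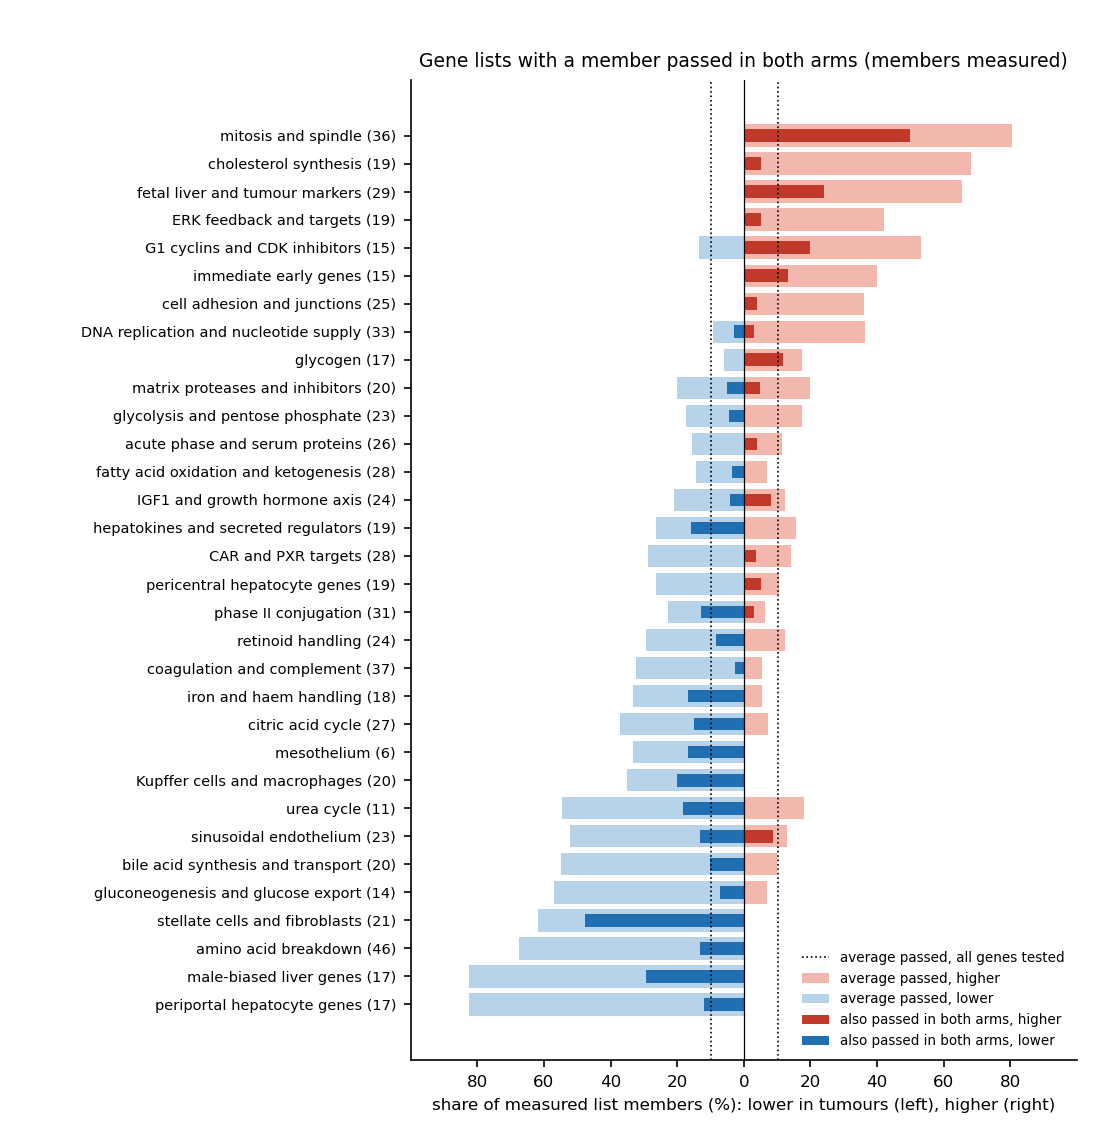
Share of the measured members of each gene list (vertical axis, members measured in parentheses) that passed in the average, pale bars, and in both arms, dark bars, drawn to the right for higher and to the left for lower (horizontal axis, percent). Mitosis reaches 80.6% and 50%, periportal and male-biased genes 82.4% lower in the average but 11.8% and 29.4% in both arms, and stellate markers 61.9% and 47.6%. Dotted lines mark the 10.3% and 9.91% of all genes.

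Genes of cholesterol synthesis also rose in the average, 13 of 19 (68.4%, against 10.3% of all genes) with none lower and a median effect of 0.90. But 1 passed in both arms (5.26%, against 1.86%). This was Lss, lanosterol synthase, with 9.12 to 9.46 against 9.72 to 10.82 in the Ctnnb1 arm and 7.70 to 9.05 against 10.62 to 11.36 in the Ha-ras arm (average 1.66, SE 0.21, adjusted p = 5.53e-05). The call in both arms was lost without Ctnnb1 tumour 1 or any single phenobarbital control (highest adjusted p = 0.124). The list's mean level was 9.15 in the lowest untreated control and 10.37 and 10.40 in the other two. In the glycogen list, Gyg, the glycogenin that primes the polymer, rose by 0.91 (SE 0.12) and Pgm2, of the phosphoglucomutase family, by 1.12 (SE 0.10), the latter more in the Ha-ras arm (difference -1.19, adjusted p = 0.00231) and not in both arms without phenobarbital control 6 (adjusted p = 0.124).

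Etnppl, the lyase that breaks down phosphoethanolamine, had the largest shared fall. It measured 12.22, 12.68 and 12.30 in the phenobarbital controls and 11.53, 11.73 and 10.70 in the untreated controls, against 5.37 to 8.15 (median 7.39) in the Ctnnb1 tumours and 4.82, 7.39 and 8.25 in the Ha-ras tumours. No tumour came within 2 log2 units of a control. The average fall was -4.86 (SE 0.47, adjusted p = 5.04e-06), 29.1-fold, with -5.23 and -4.50 in the arms.

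Etnppl belongs to a list of periportal hepatocyte genes, of which 14 of 17 fell in the average (82.4%, against 9.91% of all genes) with a median of -1.44. Only Etnppl and Asl, the argininosuccinate lyase of the urea cycle, fell in both arms (11.8%, against 1.59%). When each arm was fitted alone 5 genes did. The list's median was -2.59 in the Ctnnb1 arm and -0.21 in the Ha-ras arm. Cyp2f2, a periportal cytochrome P450, fell by -4.19 in the Ctnnb1 arm and measured -2.85 in the Ha-ras arm (adjusted p = 0.0676), where its tumours did not overlap the controls. The pericentral list had 19 genes. In the average 2 of them rose (10.5%, near the 10.3% of all genes) and 5 fell (26.3%, against 9.91%). A further 4 passed with opposite signs in the arms, and the list's medians were 1.27 and -1.61. In the pericentral list the difference between the arms passed in 13 of the 19 genes, and in the periportal list in 8 of the 17.

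Asl went from 11.70, 11.89 and 12.18 to between 10.47 and 10.95 in the Ctnnb1 arm and from 12.06, 11.53 and 11.73 to 10.15, 10.04 and 10.71 in the Ha-ras arm, a fall of -1.36 (SE 0.13, adjusted p = 3.64e-06). Slc25a15, the mitochondrial ornithine carrier of the same cycle, fell by -1.13 (SE 0.12). Of 11 urea cycle genes 6 fell (54.5%, against 9.91% of all genes) and 2 rose (18.2%, against 10.3%) in the average. Of 46 genes of amino acid breakdown 31 fell in the average (67.4%, against 9.91% of all genes), none rose, and the median was -0.75. In both arms 6 fell (13%, against 1.59%). Of these, Kynu, of tryptophan breakdown, fell by -1.67, and Gnmt, the glycine methyltransferase that uses up methyl donor, by -1.27. Cth, the cystathionine lyase that makes cysteine, fell by -1.20, and Sardh, sarcosine dehydrogenase, by -1.10. The count of 6 was 3 without phenobarbital control 5, and Gnmt lost its call without control 4 or 5 and Kynu without untreated control 2 or Ha-ras tumour 1.

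For gluconeogenesis and the release of glucose, 14 genes were measured. In the average 8 fell (57.1%, against 9.91% of all genes) and 1 rose (7.14%, against 10.3%). The number that fell was 5 when phenobarbital control 4 or 5 or untreated control 1 or 3 was left out. G6pc, the phosphatase that releases free glucose, fell in both arms (average -2.30, SE 0.41, adjusted p = 0.000867). Its phenobarbital controls spread over 12.52, 11.87 and 10.30 and overlapped the Ctnnb1 tumours, of which the highest was 10.53, and the call ended without control 4 or 5 (highest adjusted p = 0.137). Khk, which admits fructose to glycolysis, fell by -0.74 (SE 0.10). In the citric acid cycle 10 of 27 genes fell (37%, against 9.91% of all genes) and 2 rose (7.41%, against 10.3%). The number that fell was 5 without untreated control 3, and 6 without untreated control 1 or Ha-ras tumour 2. Sdha, the flavoprotein subunit of succinate dehydrogenase, fell by -0.64 (SE 0.10, adjusted p = 0.000351), with -0.62 and -0.67 in the arms. Pdk1, a kinase that switches pyruvate dehydrogenase off, fell by -1.03 and Sucla2, a succinyl-CoA ligase subunit, by -0.49. The call of Pdk1 was lost in 4 omissions, those of untreated control 1 or 2 and Ha-ras tumour 2 or 3, and that of Sucla2 in 1, Ha-ras tumour 1. The other probe sets of Sucla2 measured -0.08 and 0.0038 and did not pass.

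Bile acid genes fell in the average in 11 of 20 (55%, against 9.91% of all genes), with a median of -0.79, and 2 rose (10%, near 10.3%). But the arms differed in them, with 14 lower in the Ha-ras arm and 2 in the Ctnnb1 arm. Cyp8b1, the sterol 12-alpha-hydroxylase that sets the share of cholic acid, fell by -1.20 in the Ctnnb1 arm and -3.57 in the Ha-ras arm (difference 2.36, adjusted p = 0.0184), and 8 of the 16 omissions ended the call in both arms. Cyp7a1, which catalyses the first and limiting step from cholesterol, rose by 1.62 in the Ctnnb1 tumours and fell by -3.13 in the Ha-ras tumours, and Cyp27a1 rose by 0.72 and fell by -2.47. The average of Cyp7a1, -0.75, did not pass (adjusted p = 0.176). Promoter windows of hepatocyte genes are known for sites of HNF1 and HNF4, which were searched as GTTAATNAT and CAAAGTCCA on both strands. A match was found in 2 of the 229 windows of shared fallers (0.873%) and in 1.08% of all windows. Both are printed because they are the only such windows, Cyp8b1 at chr9:121916256-121916555 on the minus strand with CAAAGTCCA in capitals and G6pc at chr11:101367466-101367765 on the plus strand with a match to GTTAATNAT in capitals.
Cyp8b1: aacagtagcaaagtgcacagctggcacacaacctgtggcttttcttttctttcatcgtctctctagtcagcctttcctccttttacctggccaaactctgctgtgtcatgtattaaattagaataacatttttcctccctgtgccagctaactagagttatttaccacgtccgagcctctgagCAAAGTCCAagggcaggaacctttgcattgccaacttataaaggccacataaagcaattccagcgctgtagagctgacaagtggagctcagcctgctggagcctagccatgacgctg
G6pc: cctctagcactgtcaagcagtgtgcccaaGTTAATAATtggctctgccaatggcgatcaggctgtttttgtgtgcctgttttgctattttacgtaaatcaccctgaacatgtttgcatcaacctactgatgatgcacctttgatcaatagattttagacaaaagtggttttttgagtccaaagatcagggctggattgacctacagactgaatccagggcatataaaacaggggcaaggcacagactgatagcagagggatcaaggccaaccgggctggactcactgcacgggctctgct
Full-length forms of these sites were not searched, and the absence of these letters says nothing about either factor.

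Genes more active in male than in female liver fell, 14 of 17 in the average (82.4%, against 9.91% of all genes) with none higher and a median of -1.47. In both arms 5 fell (29.4%, against 1.59%). The organic anion carrier Slco1a1 went from 10.40, 10.82 and 11.53 to 6.53 to 9.86 in the Ctnnb1 arm and from 11.68, 11.86 and 11.41 to 5.65, 8.08 and 8.52 in the Ha-ras arm (average -3.32, SE 0.53, adjusted p = 0.000398). It lost the call in both arms in 5 omissions, those of any phenobarbital control or of Ctnnb1 tumour 2 or 7 (highest adjusted p = 0.113). Susd4, a complement inhibitor, fell by -2.50 (SE 0.21), the conjugating enzyme Ugt2b38 by -2.48 (SE 0.38), the peroxisomal hydrolase Nudt7 by -1.50 (SE 0.16) and the complement component C8b by -1.47 (SE 0.19). The count of 5 was 3 without phenobarbital control 4 or 5. Of 15 female-biased genes 5 rose in the average (33.3%, against 10.3% of all genes). In the Ha-ras arm 7 rose and in the Ctnnb1 arm 1, with medians of 1.37 and -0.24. The difference between the arms passed in 5 of the 15. None rose in both arms in limma, and 1 did at an unadjusted p under 0.05. Mup10, of the male urinary pheromone carriers, fell by -4.19 (SE 0.68, adjusted p = 0.000419), its Ctnnb1 tumours spread over 4.11 to 8.40. Members of the Mup, Ces1, Sult2a and Ugt2b families are close in sequence, so which member a probe set reads is uncertain.

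Hamp, which encodes hepcidin, the hormone that limits iron uptake, was 13.54, 13.54 and 13.08 in the phenobarbital controls and 13.06, 13.39 and 13.78 in the untreated ones. The Ctnnb1 tumours had 8.41 to 11.44 (median 10.19) and the Ha-ras tumours 8.74, 10.03 and 12.86. Every tumour was below every control, Ha-ras tumour 3 by the least. The fall was -3.03 (SE 0.57, adjusted p = 0.00127), and the call in both arms was lost without any single untreated control or Ha-ras tumour 1 or 2 (highest adjusted p = 0.183). The neighbouring copy Hamp2 fell by -2.90 (SE 0.36), with probes that may share target sequence with Hamp. Another probe set of Hamp2 measured -0.21 (adjusted p = 0.171).

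Further large shared falls came from genes with no common list. Cyp46a1, the cholesterol 24-hydroxylase best known from neurons, fell by -3.31 (SE 0.34, adjusted p = 9.22e-06), by -3.32 and -3.30 in the arms. Gas1, a membrane protein named for growth arrest and a co-receptor for Hedgehog, had narrow groups, 8.53 to 9.41 against 5.51 to 6.53 in the Ctnnb1 arm and 9.05 to 9.81 against 6.25 to 6.34 in the Ha-ras arm (average -2.99, SE 0.16, adjusted p = 4.67e-08). Olfm3, an olfactomedin, fell by -3.32 (SE 0.22) and the water channel Aqp4 by -3.23 (SE 0.22). The collectin Colec10 fell by -3.31 (SE 0.54), the carboxylesterase Ces1e by -3.09 (SE 0.27), and the bile acid sulfotransferase Sult2a8 by -2.60 (SE 0.40). Colec10 lost its call in both arms without Ha-ras tumour 1 (adjusted p = 0.0554), and Sult2a8 lost it in 6 omissions. Neb, the giant muscle protein nebulin, Hectd2os, a non-coding RNA, and the pseudogene Serpina4-ps1 completed the 15 largest falls among named genes whose arrays were apart in both arms, at -2.99, -3.17 and -3.15. Nnmt, which methylates nicotinamide, fell by -3.48 (SE 0.56), more than most of these, but its arrays overlapped: Ctnnb1 tumour 2 (8.35) stood above phenobarbital control 4 (7.83), and its call was lost in 3 omissions. Egfr, the epidermal growth factor receptor, fell by -1.46 (SE 0.18), by -1.80 and -1.11 in the arms, and lost its call in both arms without untreated control 2 or Ha-ras tumour 2.

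**Figure D5:**
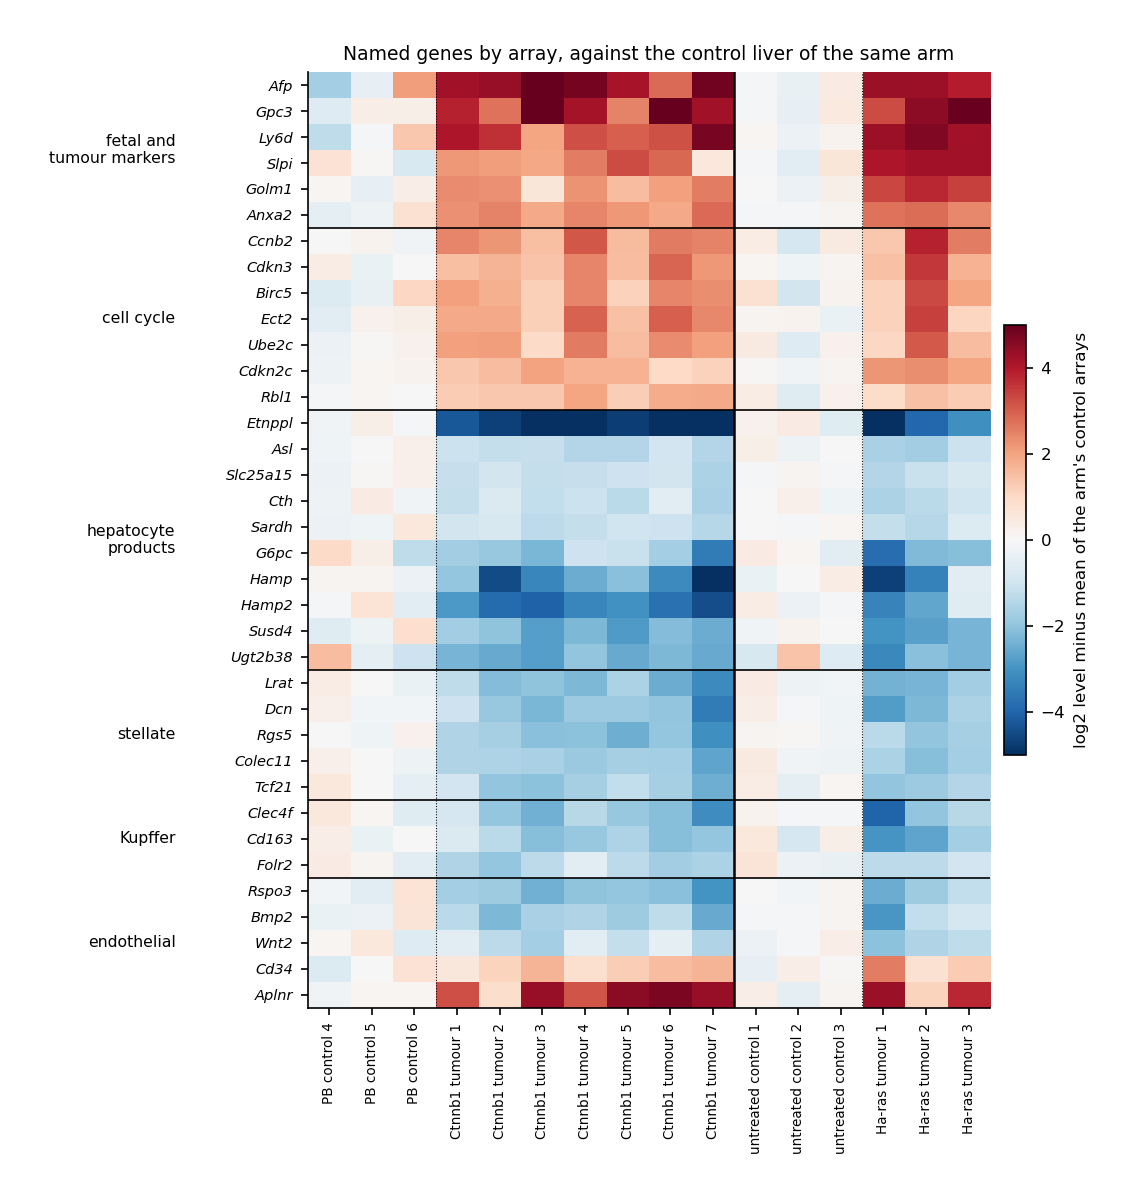
Difference of each array's log2 level from the mean of the control arrays of its arm (colour, red higher and blue lower, values beyond 5 drawn at the end of the scale) for named genes (vertical axis, by group) in the 16 arrays (horizontal axis). Stellate and Kupffer genes are lower in all 10 tumours, and mitosis genes are highest in Ha-ras tumour 2 within the Ha-ras arm.

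Markers of hepatic stellate cells, the vitamin A storing pericytes of the liver, had the largest share of falls in both arms among the 51 gene lists. Of 21 stellate and fibroblast genes 13 fell in the average (61.9%, against 9.91% of all genes) and none rose, with a median of -0.77. In both arms 10 fell (47.6%, against 1.59%). The count in both arms was 9 to 10 in the 16 omissions. Fewer cells of a type and less RNA per cell cannot be told apart in bulk tissue, here and for every cell type that follows. Lrat, the enzyme that esterifies retinol for storage, was 8.55, 8.17 and 7.85 in the phenobarbital controls and 8.49, 7.79 and 7.91 in the untreated controls. The Ctnnb1 tumours had 5.01 to 6.91 (median 6.03) and the Ha-ras tumours 5.71, 5.74 and 6.33, all below all controls. Lrat fell by -2.13 in each arm (average SE 0.24, adjusted p = 2.07e-05).

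Dcn, the matrix proteoglycan decorin, fell by -2.13 (SE 0.28), Rgs5, a pericyte regulator of G protein signals, by -1.88 (SE 0.19), Colec11, a collectin, by -1.80 (SE 0.17), and Tcf21, a mesenchymal transcription factor, by -1.73 (SE 0.22). The difference between the arms was largest in Rgs5, -0.44 (adjusted p = 0.62), and no tumour overlapped a control of its arm. The growth factor receptor Pdgfra (-1.68), the transcription factor Hand2 (-1.68) and the matrix genes Ecm1 (-1.57) and Lum (-1.53), named after their values were seen, fell in both arms too. Genes of activated, collagen-making stellate cells did not pass: Col1a1 measured 0.50, Col1a2 0.66, Col3a1 0.40 and Acta2 0.15 in the average. The mean level of the list ran from 6.86 to 7.48 in the 10 tumours and from 7.65 to 8.06 in the 6 controls.

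Of 20 markers of Kupffer cells, the resident macrophages, 7 fell in the average (35%, against 9.91% of all genes) and none rose. In both arms 4 fell (20%, against 1.59%). Clec4f, a lectin particular to Kupffer cells, went from 9.54 to 10.67 to between 7.02 and 9.28 in the Ctnnb1 arm and from 9.89, 9.59 and 9.63 to 5.68, 7.73 and 8.33 in the Ha-ras arm (average -2.20, SE 0.38, adjusted p = 0.000664). Leaving out phenobarbital control 4 ended the call in both arms (adjusted p = 0.0734). The haemoglobin scavenger receptor Cd163 fell by -2.05 (SE 0.26) and the folate receptor Folr2 by -1.30 (SE 0.21). Cd68 and Lyz2, of macrophages in general, measured 0.20 and 0.01 in the average and did not pass. The count in the average was 12 without Ha-ras tumour 3, whose mean list level was 7.93 against 6.29 and 6.44 in the other two. The count in both arms was 2 without phenobarbital control 4, untreated control 1 or Ha-ras tumour 1.

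Sinusoidal endothelial cells line the liver's fenestrated capillaries and send Wnt signals to pericentral hepatocytes. Of 23 of their genes 12 fell in the average (52.2%, against 9.91% of all genes) and 3 rose (13%, near the 10.3% of all genes). In the Ctnnb1 arm 10 fell and in the Ha-ras arm 3, with medians of -0.86 and -0.24. The difference between the arms passed in none of the 23. The signals fell in both arms: Rspo3, which strengthens Wnt signalling, by -1.97 (SE 0.23, adjusted p = 2.57e-05), Bmp2, which induces hepcidin in hepatocytes, by -1.72 (SE 0.29) and the ligand Wnt2 by -1.33 (SE 0.23). Rspo3 measured 5.99 to 7.22 against 3.56 to 4.83 in the Ctnnb1 arm and 6.18 to 6.47 against 3.86 to 5.11 in the Ha-ras arm. Its arrays were apart in both arms, while those of Wnt2 overlapped in the Ctnnb1 arm. Bmp2 lost its call in both arms without untreated control 3 or Ha-ras tumour 1, and Wnt2 without phenobarbital control 4 or 5 (highest adjusted p = 0.135). Aplnr and Cd34, known from capillaries other than sinusoids, rose in both arms. Aplnr, the apelin receptor, rose by 3.34 (SE 0.56, adjusted p = 0.000611), with 3.23 to 3.49 against 4.29 to 8.10 in the Ctnnb1 arm and 4.39, 3.56 and 4.18 against 8.37, 5.14 and 7.83 in the Ha-ras arm. Cd34, an antigen of continuous endothelium, rose by 1.39 (SE 0.28). The call of Aplnr was lost in 5 omissions and that of Cd34 in 8, and the count of endothelial fallers was 7 without untreated control 3.

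None of 9 B and plasma cell, 8 neutrophil or 11 dendritic cell genes passed in the average in limma, and 1 of 14 T and NK cell genes did. At an unadjusted p under 0.05 the numbers were 1, 0 and 2, and in no other setting did more than 1 gene of any of these 3 lists pass. Of 6 erythroid genes 2 fell in the average (33.3%, against 9.91% of all genes) and none in both arms. Alas2, of haem synthesis, fell by -1.31 and the transcription factor Klf1 by -1.13, named after their values were seen. Both passed in the Ha-ras arm only, and the difference between the arms passed in both. The mean level of the erythroid list was 4.99 to 5.22 in the Ha-ras tumours and 5.77 to 5.82 in their controls, and 5.14 to 5.52 and 5.47 to 5.62 in the Ctnnb1 arm. Of 6 mesothelial genes 2 fell in the average (33.3%, against 9.91%). The mean level of the mesothelial list was 4.25 to 4.53 in the tumours and 4.61 to 4.82 in the controls. Of the 11 hepatocyte markers 2 rose (18.2%, against 10.3% of all genes) and 3 fell (27.3%, against 9.91%). Albumin (Alb) measured 14.91 to 15.06 in tumours and 14.86 to 14.97 in controls, an average of 0.09 (adjusted p = 0.28).

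Genes for which the average stands for neither arm were most marked among those passed with opposite signs. Rdh16f2, of the retinol dehydrogenase family, fell by -3.72 in the Ctnnb1 arm and rose by 2.76 in the Ha-ras arm, with an average of -0.48 (adjusted p = 0.294). Wfdc15b, a whey acidic protein family member, gave -1.57 and 4.33 and still passed in the average at 1.38. The sodium channel Scn8a gave -0.87 and 4.57 and the leptin receptor Lepr -1.77 and 3.01. The aldehyde dehydrogenase Aldh1b1 gave -3.61 and 1.99, and the transcription factor Tbx3 0.996 and -2.14. The call in both arms was lost in 8 omissions for Scn8a, 12 for Aldh1b1 and 3 for Tbx3. In the Ctnnb1 arm Scn8a overlapped, with tumours at 3.41 to 4.85 and controls at 4.74 to 5.18. Its other probe sets measured 0.08, -0.18, -0.007 and 0.003 in that arm and did not pass there. Nor did those of Lepr (-0.41, -0.99 and -0.10) or Tbx3 (0.81, 0.89, 0.22 and -0.01). Another probe set of Lepr passed in the average at 1.22 and another of Tbx3 at -0.89, where the probe sets used did not. In the probe set used, Ctnnb1 itself passed in the average at 0.31 through the Ha-ras tumours. It rose by 0.59 there (adjusted p = 0.00128), with 0.04 in the Ctnnb1 arm. Other probe sets of Ctnnb1 passed in the average at 0.71 and 0.99 and in neither arm. They measured 0.61 and 1.14 in the Ctnnb1 arm and 0.81 and 0.84 in the Ha-ras arm, so a rise in the Ha-ras tumours alone is not shown.

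Some large averages passed through 1 arm. Igdcc4, an immunoglobulin superfamily receptor, averaged 3.17, and its Ctnnb1 tumours ran from 5.17 to 9.10 against controls of 4.21 to 5.28 (adjusted p = 0.074 in that arm). The trefoil peptide Tff3 averaged 2.90, with 1.30 in the Ctnnb1 arm (adjusted p = 0.156) and 4.50 in the Ha-ras arm. Among fallers, the male-biased steroid dehydrogenase Hsd3b5 averaged -3.14, the uridine phosphorylase Upp2 -2.47 and the organic anion transporter Slc22a7 -2.33, each passing in the Ha-ras arm, with -2.22, -1.46 and -1.33 in the Ctnnb1 arm (adjusted p = 0.114, 0.131 and 0.0509). The lipid transporter Mfsd2a averaged -2.53 and passed in the Ctnnb1 arm, with -1.65 in the Ha-ras arm (adjusted p = 0.218). Apart from Tff3, and from Tspan8 and Cdkn2b above, the difference between the arms did not pass in these, so that missing 1 arm is not shown to be a difference from it.

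Probe sets that were not used to choose genes gave a second reading. For 198 of the shared risers 378 further probe sets existed, of which 83.3% were higher in the average and 194 (51.3%) passed, with 5 passing in the other direction. For 155 of the shared fallers 90.9% of 297 were lower and 147 (49.5%) passed, with 1 against. Over all genes 66.2% of further probe sets had the sign of the first and 12.2% passed with it. They read the same RNA samples and are not replicates. Among the described genes whose average passed, 24 further probe sets had the sign of the first and did not pass in the average. They include those of Aplnr (0.35, adjusted p = 0.127), Rspo3 (-0.13, adjusted p = 0.391) and Tcf21 (-0.18, adjusted p = 0.101), and of Anxa2 (0.05), Nid1 (0.29), Gas1 (-0.15) and Aqp4 (-0.12), while 3 of the 4 further probe sets of Afp passed.

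The arrays were alike in range, with medians of 5.03 to 5.10, and the lowest correlation between 2 of them was 0.952. In phenobarbital control 6 the 3 prime Gapdh control probe set exceeded the 5 prime one by 2.70 log2 units, against -0.15 to 0.32 in the other 15, which touches every value of the Ctnnb1 arm. Leaving it out gave 302 risers and 256 fallers in both arms, and with this gap as a covariate 208 and 166 passed.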

How the data were processed

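Total RNA of 16 mouse liver samples was hybridised to Affymetrix arrays of 45101 probe sets. The deposited values are log2 intensities made by RMA with R 2.14.1, per the submitters' processing notes. RMA subtracts background, forces the arrays to 1 common distribution and summarises the probes of a set, and is known to narrow large changes. The labels give no batch or scan time.

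After leaving out 64 control probe sets, 34945 had 1 gene symbol, 932 several and 9160 none, by the platform annotation, and 34741 were matched to RefSeq by gene number. The probe set with the highest mean stood for each of 18193 genes. Fits used limma 3.58.1 in R 4.3.3 on all 16 arrays with 1 coefficient per group, moderated by empirical Bayes. The fit was tested on simulated data: of 100 genes changed by 1 on the log2 scale, 94.4 were recovered in the average and 78 in both arms, and of 100 changed by 2, 98.8 and 96.6. Of the simulated calls in the average 5.64% were false, and of those in both arms 0 were. In the data 1481 genes passed in the Ctnnb1 arm only and 1751 in the Ha-ras arm only, far more than the 100 changed here. The 0 therefore does not measure the false share among the 628 genes passed in both arms. Precision is set by how many arrays each group has, since intensities have no counting depth.

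Named genes follow a rule: the 15 largest average rises and falls among genes passed in both arms with arrays apart in each, up to 5 members of each of 51 gene lists that passed in both arms (and up to 2 that passed against the list and 2 with opposite signs), the largest averages passing in 1 arm, the largest differences between the arms, and a few marker genes. Which of these are described, and a few genes outside the rule, were chosen after their values were seen. Genes and lists were chosen with earlier results of these data known. Alternatives changed the probe set, dim genes, scaling, weights, blocks, thresholds and single arrays. The mutated ras transcript was not analysed here. The genome build behind the probe annotation is not given in the sources used here.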

Additional observations from a re-analysis of the deposited data

Results flagged for a closer look

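In the 7 Ctnnb1 tumours, 1 array lay far from the others in 11 of the 102 described genes, where chance gives such a gap in about 1 of 20 groups. Tumour 7 was the lowest for 5 metabolic or stellate genes: Slc25a15 (10.83, others 11.21 to 11.49), Gnmt (12.23, others 13.10 to 13.33), Sdha (11.05, others 11.58 to 11.82), Nudt7 (11.54, others 12.10 to 12.35) and Colec11 (7.48, others 8.23 to 8.58). Tumour 2 was the lowest for Aplnr (4.29, others 6.56 to 8.10) and the highest for Nnmt (8.35, others 4.78 to 5.96). Tumour 6 was the highest for Egr1 (9.58, others 8.73 to 8.90) and the lowest for Tbx3 (8.30, others 9.46 to 9.85). Psrc1 was highest in tumour 4 (5.74, others 4.74 to 5.15) and Mcm10 in tumour 3 (10.35, others 8.27 to 9.15).

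The difference between the tumour effects, Ctnnb1 minus Ha-ras on the log2 scale, passed for several described genes. Among genes that rose in both arms it was -1.44 for Nid1, -1.66 for Mtmr11, -2.82 for Csn3, -3.70 for Psrc1, -1.97 for Ifi27l2b, -1.56 for Igfbp1, -1.67 for Itga6, -3.16 for Egr1 and -1.19 for Pgm2, a larger rise in the Ha-ras tumours in each. For Cyp8b1, which fell in both arms, it was 2.36. Among genes passed in 1 arm it was -4.20 for Tspan8, -3.21 for Tff3, -3.70 for Cdkn2b and -0.55 for Ctnnb1. Other probe sets of Ctnnb1 passed in neither arm. Where the arms passed with opposite signs, it was -6.48 for Rdh16f2, -5.91 for Wfdc15b, -5.60 for Aldh1b1, -5.43 for Scn8a, -4.78 for Lepr, 4.75 for Cyp7a1, 3.19 for Cyp27a1 and 3.14 for Tbx3. Adjusted p ran from 8.34e-07 for Wfdc15b and Scn8a to 0.0455 for Tff3.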

How the results depend on the processing

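Of the counts over all genes, 3684 genes passed in the average, and leaving out 1 array gave 2884 to 3676. The count of risers in both arms (338) became 257 to 346, that of fallers (290) 199 to 324, and that of differences between the arms (988) 648 (without untreated control 1) to 1177. At an adjusted p under 0.01 the average kept 1966 genes, both arms 137 risers and 115 fallers, and the difference 419. With a 2-fold minimum at the threshold of 0.05, 707 genes passed in the average, and 123 rose and 124 fell in both arms. Array weights gave 1547 differences between the arms. With the gap between the Gapdh control probe sets as a covariate, 208 risers and 166 fallers passed in both arms, of which 175 and 136 were among the 338 and 290. The cause was not tested. Scaling moved the split of the average: 1852 higher and 1976 lower after a second quantile normalization, and 1672 and 2108 after median centring, against 1881 and 1803. The median over all genes was -0.01 and -0.06 under these, against -0.03.

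A fixed replicate block, pairing tumour and control of the same number in each arm, left 226 risers and 162 fallers in both arms and 2709 genes in the average. The labels do not say what a number marks, so the numbers were not taken as pairs. The correlation of same-numbered deviations was 0.13, 0.0866 and -0.116 in the Ctnnb1 arm and 0.0302, 0.399 and 0.238 in the Ha-ras arm. Different numbers gave -0.322 to 0.0709 in the Ha-ras arm, and whether its samples are paired was not settled. A random block gave 375 and 322. The mitosis genes risen in both arms fell from 18 to 9 under the fixed replicate block, an alternative for lists that was chosen after seeing the data.

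Other probe sets of 6 described genes had the opposite sign in the average: Csn3 -0.0867, Rbl1 -0.177 and -0.0519, Sucla2 0.00379, Scn8a -0.0792, Lepr -0.0663, and Tbx3 0.18 and 0.12, none of which passed, and the cause was not tested. For genes whose average passed, a further 24 of the 98 other probe sets kept the sign and did not pass. In the 16 omissions of 1 array, run for 102 of the genes the text names, no gene lost its call in the average.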
